A study of Mus musculus with 6 samples.

Results

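The genes described here encode the metalloproteases that cut proteins at the cell surface and in the extracellular matrix, their non-proteolytic relatives and their inhibitors: every gene symbol of the Adamts, Adamtsl, Adam, Mmp and Timp families in the deposited table. Matching symbols by name gave 84 of the 24444 genes, namely 19 Adamts, 5 Adamtsl, 33 Adam, 23 Mmp and 4 Timp genes. The study profiled poly(A) RNA of the telencephalon, the part of the embryonic brain from which cortex and striatum arise, of C57BL/6J mice at E12.5. It compared 3 libraries labelled Arl13b-/- (here Arl13b-null 1 to 3) with 3 labelled wild-type (wild-type 1 to 3); the product of Arl13b is a ciliary GTPase. No other allele or agent is named in the labels, and neither the nature of the mutant allele nor whether the libraries came from separate embryos is given in the sources used here. The p-values therefore rest on the spread between libraries, and some of that spread may be technical. For each gene the test used here, limma, takes part of this spread from the other genes tested.

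ADAMTS enzymes are secreted and cut matrix proteins such as the proteoglycan versican, procollagens and fibrillin-associated proteins, while ADAMTS-like proteins share their ancillary domains without the protease. ADAMs are membrane proteins, and the active ones shed the outer parts of receptors and ligands, among them Notch and ligands of the EGF receptor. MMPs degrade matrix or sit in the membrane, and TIMPs block them by binding the catalytic zinc site. In the developing forebrain these families act on the matrix around progenitors, the meninges and vessels, and on neuronal adhesion molecules.

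The libraries differed in more than their genotype label. Across the genes tested, Arl13b-null 1, Arl13b-null 3, wild-type 2 and wild-type 3 correlated with each other at Pearson's r of 0.985 or more, whereas Arl13b-null 2 correlated with these 4 at 0.722 or less and wild-type 1 at 0.898 or less; genes are not independent replicates. Relative to those 4 libraries, Arl13b-null 2 had a low sum of progenitor marker counts and a high sum of neuronal ones, and wild-type 1 stood between. Single markers did not all follow the sums. The progenitor markers Slc1a3 (6055) and Fabp7 (8584) and the neuronal marker Map2 (44884) were highest in wild-type 1. Neuronal Nefm in Arl13b-null 2 (4395) lay within the range of those 4. Choroid plexus and roof plate markers summed to 28512 in wild-type 1, 122 in Arl13b-null 2 and 5566 to 8086 in those 4. The tissue label was checked with 9 forebrain marker genes, all of which had counts in every library. This check is weak for Arl13b-null 2, where Gsx2 had 2.63 and Nkx2-1 13.1 counts, against 343 and 1182 in wild-type 2. Tbr1, in contrast, was highest in Arl13b-null 2, at 12151. Emx1, a transcription factor of the dorsal telencephalon, had 145, 2641 and 25.0 normalized counts in Arl13b-null 1 to 3, against 633, 875 and 1161 in wild-type 1 to 3. Arl13b-null 3 was the lowest library for this marker. Lhx2, another forebrain transcription factor, had 6127 counts there, against 10254 and 12828 in wild-type 2 and 3. Tbr1 had 369 in Arl13b-null 3, against 3193 and 4531 in wild-type 2 and 3, and Nkx2-1 211, against 1182 and 1526. Pax6 had 3019, between the 2514 and 3384 of wild-type 2 and 3. The Y-linked gene Kdm5d had 1568 and 1599 counts in wild-type 2 and 3 and at most 0.618 in the other 4 libraries, so Y-linked expression and genotype coincide among Arl13b-null 1 and 3 and wild-type 2 and 3 and cannot be told apart there. The X-linked gene Xist had 16292, 244 and 19017 counts in Arl13b-null 1 to 3, against 15101, 26.5 and 213 in wild-type 1 to 3. Arl13b-null 2 was thus low in both Kdm5d and Xist. Arl13b itself had 492, 532 and 564 counts in Arl13b-null 1 to 3 and 661, 553 and 560.0 in wild-type 1 to 3, which does not separate the groups (difference over 6 libraries −0.14 ± 0.20, SE; limma adjusted p = 0.990). The group names are therefore those of the labels, and the level of the targeted transcript does not bear them out. The counts of genes past the threshold and the main differences are given for all 6 libraries and for Arl13b-null 1 and 3 against wild-type 2 and 3, here called the 4 similar libraries.

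Of the 84 genes, 47 had values high enough to be tested. Over all 6 libraries none passed an adjusted p of 0.05 in limma (lowest adjusted p 0.990), as for all genes, of which 0% passed. An unadjusted p under 0.05 was found for 1 of the 47, Adamts16, where it was lower in Arl13b-null, and for 163 of the 14249 genes tested (1.14%; 1.03% lower). Among the 4 similar libraries, 1 of the 47 passed, Adamts18, against 0.253% of all genes, and the share of lower calls among all genes was 0.182%. The calls among all genes include the Y-linked Kdm5d, Ddx3y, Uty and Eif2s3y, lower, and Xist, higher. The groups of these 4 libraries did not overlap for 28 of the 47 genes (59.6%), against 47.5% of all genes. Of these, 19 (40.4%) were lower in Arl13b-null, against 18.1% of all genes, and 9 (19.1%) were higher, against 29.3%. The median difference over the 47 genes was −0.11 on the log2 scale, where the median of all genes was 0.02. Over all 6 libraries it was −0.34, where the median of all genes was 0.00. Below 0 were 37 of the 47 over 6 libraries (78.7%, against 49.8% of all genes) and 31 over the 4 similar ones (66%, against 41.2%). Compared with the mean of the 4 similar libraries, Arl13b-null 2 was at least 1 lower in 17 of the 47 (25.7% of all genes). It was at least 1 higher in 12 (20.9% of all genes).

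Adamts18 was the only gene of these families past the threshold among the 4 similar libraries, with lower values in Arl13b-null 1 and 3. It encodes a secreted protease that in mice is needed for normal development of the eye and of branching organs. Adamts18 had 54.1, 469.8 and 37.0 normalized counts in Arl13b-null 1 to 3, against 546, 219.8 and 260.4 in wild-type 1 to 3. Arl13b-null 1 and 3 lay below every wild-type library, whereas Arl13b-null 2 lay above wild-type 2 and 3, so the groups of 3 overlapped. In the 4 similar libraries the variance-stabilised level was 6.69 ± 0.19 in Arl13b-null and 8.25 ± 0.14 in wild-type (SD, n = 2 each), a difference of −1.57 ± 0.13 (SE; limma adjusted p = 0.0337). The mean normalized count was 45.5 in Arl13b-null and 240.1 in wild-type, a ratio of 0.190. Over all 6 libraries the difference was −1.11 ± 0.75 (SE; limma adjusted p = 0.990). Set against the 2 wild-type libraries, Arl13b-null 1 alone gave −1.43 and Arl13b-null 3 alone −1.70. With 1 library these fits hold no spread within Arl13b-null. The call ended without wild-type 2 (limma adjusted p = 0.141), without wild-type 3 (0.124), without the mean-variance trend (0.0657) and without the filter on low values (0.329).

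Marker genes of other cells also differed among the 4 similar libraries. Of all genes tested, 41.2% were lower in Arl13b-null in this comparison, and 0.182% were lower and past the threshold. All 11 surface ectoderm markers were lower in Arl13b-null, with a summed count of 837 and 299 in Arl13b-null 1 and 3, against 4409 and 1952 in wild-type 2 and 3. In the 2 libraries that stand apart this sum was 214 in Arl13b-null 2 and 15686 in wild-type 1. The sum of the 9 telencephalic markers was 21845 and 13989 in Arl13b-null 1 and 3, against 26080.1 and 33657 in wild-type 2 and 3, and 8 of the 9 were lower. The mesenchymal and meningeal list summed to 28332 and 33392 in Arl13b-null 1 and 3, against 74034 and 36870 in wild-type 2 and 3, and 10 of its 12 genes were lower. The choroid plexus and roof plate list summed to 5566 and 6332 in Arl13b-null 1 and 3, against 7373 and 8086 in wild-type 2 and 3, with 7 of 9 lower, 3 of them past the threshold. At 0 counts were 3 ectodermal, 1 mesenchymal, 3 choroid plexus and 5 red blood cell markers in Arl13b-null 2, and 1 ectodermal marker in Arl13b-null 3. Endothelial, pericyte, microglial and red blood cell markers were mostly higher, and the red blood cell list summed to 105700 and 293297 in Arl13b-null 1 and 3, against 57976 and 74854 in wild-type 2 and 3. The part of these cells in the protease values was not tested, and in bulk tissue fewer cells of a type and less RNA per cell cannot be told apart.

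The promoter windows of Adamts18, Adamts17 and Mmp11 are shown as examples. These 3 genes were lower in Arl13b-null 1 and 3 than in wild-type 2 and 3. They have an entry in the RefSeq promoter table (build GRCm38.p6, not the build of the authors' processing). Other genes of these families, such as Adamts9 and Adamts20, also met both conditions. Each window runs 5′ to 3′ over 300 bases, from 250 before to 50 after the gene's start. Capitals mark matches, on either strand, to GGGCGG (GC box), CAGCTG (an E-box), TATAAA (bound by the TATA-binding protein) or GACCACCCA (the consensus of GLI, the transcription factors of the Hedgehog pathway, which depends on the primary cilium).
Adamts18 (chr8:113848790-113849089, minus strand): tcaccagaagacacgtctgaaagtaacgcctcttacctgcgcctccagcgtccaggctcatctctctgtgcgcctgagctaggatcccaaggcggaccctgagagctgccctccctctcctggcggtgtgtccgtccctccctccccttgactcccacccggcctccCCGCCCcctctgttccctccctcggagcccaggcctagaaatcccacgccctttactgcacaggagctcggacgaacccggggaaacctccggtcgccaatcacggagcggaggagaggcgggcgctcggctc
Adamts17 (chr7:66839485-66839784, plus strand): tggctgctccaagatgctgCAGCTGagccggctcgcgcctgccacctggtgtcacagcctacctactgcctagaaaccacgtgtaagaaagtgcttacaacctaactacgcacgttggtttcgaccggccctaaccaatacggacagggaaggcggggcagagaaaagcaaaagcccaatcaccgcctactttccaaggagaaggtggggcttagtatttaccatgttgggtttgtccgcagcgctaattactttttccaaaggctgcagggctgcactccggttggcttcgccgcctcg
Mmp11 (chr10:75932453-75932752, minus strand): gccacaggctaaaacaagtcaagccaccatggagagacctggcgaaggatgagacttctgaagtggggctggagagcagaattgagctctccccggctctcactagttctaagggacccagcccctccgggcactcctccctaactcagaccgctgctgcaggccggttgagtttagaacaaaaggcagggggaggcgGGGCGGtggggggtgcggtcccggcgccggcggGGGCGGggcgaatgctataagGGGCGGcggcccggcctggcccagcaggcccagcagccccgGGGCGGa
The Adamts18 window held 1 GC box, the Adamts17 window 1 E-box and the Mmp11 window 4 GC boxes, and none of the 3 held TATAAA or GACCACCCA. Of the 84 genes, 53 had an entry, with 58 windows in all. Among all 32851 windows of the table, 35.7% held a GC box, 16.3% the E-box, 13.6% TATAAA and 0.253% GACCACCCA, against 46.6%, 19.0%, 25.9% and 0% of the 58. The TATAAA matches included secreted Mmp genes that were nearly or wholly undetected here, such as Mmp3, Mmp10 and Mmp13. A match is a description of the letters in the window and shows no binding.

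**Figure D1:**
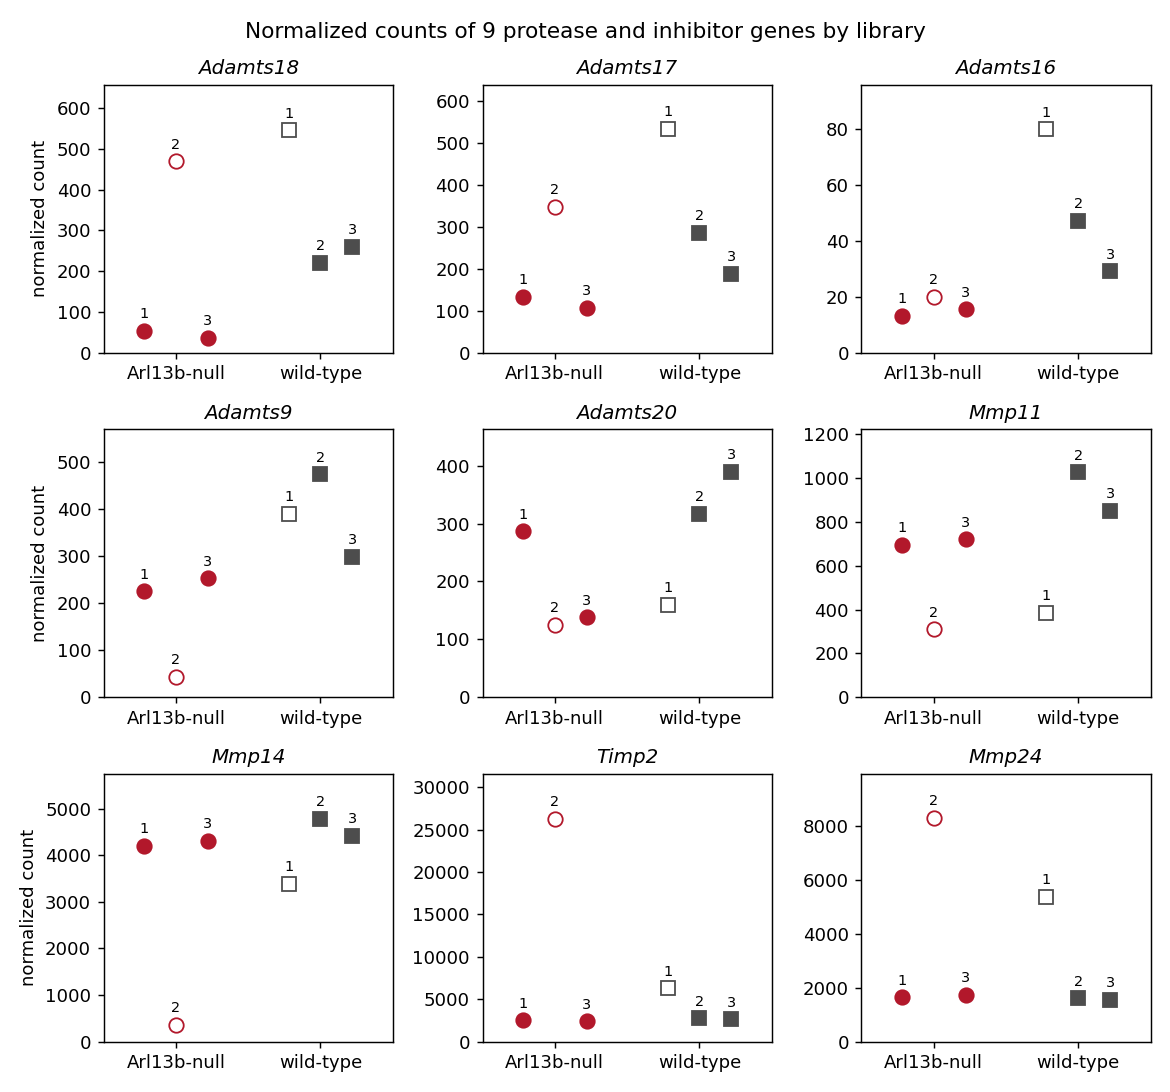
Normalized counts (vertical axes, from 0) of 9 genes in Arl13b-null libraries (red circles) and wild-type libraries (grey squares), each point 1 library with its replicate number; open symbols are Arl13b-null 2 and wild-type 1. Adamts18 is at 54.1 and 37.0 in Arl13b-null 1 and 3 and at 219.8 and 260.4 in wild-type 2 and 3, while the 2 open symbols lie above all 4.

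The other secreted ADAMTS proteases had mostly lower values in Arl13b-null 1 and 3, without passing the test. Of the 18 Adamts genes tested, here including Adamts18, 15 differed below 0 among the 4 similar libraries (83.3%, against 41.2% of all genes). The median difference of the 18 was −0.19. For 10 the groups did not overlap, with Arl13b-null lower (55.6%, against 18.1% of all genes). Over all 6 libraries 17 of the 18 were below 0, with a median of −0.56, and 49.8% of all genes were. In the 4 similar libraries an unadjusted limma p under 0.05 with a lower value was found for 6 of the 18 (33.3%), against 6.33% of all genes. Over all 6 libraries it was found for 1, Adamts16 (5.56%, against 1.03% of all genes). A higher value with such a p in the 4 similar libraries was found for 1, Adamts15, against 8.08% of all genes. The 6 lower ones were Adamts18, Adamts17, Adamts16, Adamts19, Adamts6 and Adamts9.

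Adamts17, whose product acts on fibrillin microfibrils, had 134, 347 and 106 normalized counts in Arl13b-null 1 to 3, against 533, 286 and 188 in wild-type 1 to 3. As for Adamts18, Arl13b-null 1 and 3 lay below every wild-type library and Arl13b-null 2 did not. Its difference in the 4 similar libraries was −0.71 ± 0.18 (SE; limma adjusted p = 0.198), and over 6 libraries −0.65 ± 0.49 (limma adjusted p = 0.990). Adamts16, a secreted protease linked to kidney and gonad development, had 13.2, 19.9 and 15.5 counts in Arl13b-null 1 to 3, against 79.8, 47.1 and 29.1 in wild-type 1 to 3. All 3 Arl13b-null libraries lay below all 3 wild-type libraries, including those that stand apart. The difference was −0.67 ± 0.24 over 6 libraries (SE; limma adjusted p = 0.990) and −0.53 ± 0.14 over the 4 similar ones (limma adjusted p = 0.210). Over 6 libraries the groups did not overlap for 6 of the 47 genes (12.8%), against 8.26% of all genes. Of these, 5 (10.6%) were lower in Arl13b-null without overlap, namely Adamts16, Adamts9, Adamts12, Adamts5 and Adam1a, against 3.59% of all genes, and 1, Adam11, was higher (2.13%, against 4.67%).

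Adamts9 and Adamts20 encode close relatives that cleave versican and that in mouse cells are also needed for assembly of the primary cilium. Adamts9 had 226, 43.2 and 253 counts in Arl13b-null 1 to 3, against 391, 474 and 298 in wild-type 1 to 3. The groups of 3 did not overlap, although the highest Arl13b-null and the lowest wild-type value were close. Adamts9 differed by −0.54 ± 0.19 in the 4 similar libraries (SE; limma adjusted p = 0.301) and by −1.09 ± 0.50 in all 6 (limma adjusted p = 0.990). Adamts20, which is also required for survival of pigment cell precursors in mice, had 287, 125 and 138 counts in Arl13b-null 1 to 3, against 159, 317 and 389 in wild-type 1 to 3. Arl13b-null 3 lay well below Arl13b-null 1, which was near wild-type 2. The difference in the 4 similar libraries was −0.65 ± 0.27 (SE; limma adjusted p = 0.357), and over 6 libraries −0.51 ± 0.40 (limma adjusted p = 0.990). With Arl13b-null 3 alone against wild-type 2 and 3 it was −1.05, and with Arl13b-null 1 alone −0.25.

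Adamts19, Adamts6 and Adamts5 were also lower in Arl13b-null 1 and 3 than in wild-type 2 and 3. Adamts19, a protease known from human heart valve disease, had 81.8, 23.6 and 80.2 counts in Arl13b-null 1 to 3, against 76.1, 140.3 and 121 in wild-type 1 to 3. Wild-type 1 lay with the Arl13b-null libraries, so the groups of 3 overlapped (difference in the 4 similar libraries −0.45 ± 0.10, SE; limma adjusted p = 0.161; over 6 libraries −0.57 ± 0.33). Adamts6, needed for heart development in mice, had 199.7, 19.5 and 246 counts in Arl13b-null 1 to 3, against 164, 322 and 308 in wild-type 1 to 3 (difference in the 4 similar libraries −0.41 ± 0.11; limma adjusted p = 0.201; over 6 libraries −0.82 ± 0.62). Adamts5, an enzyme that cleaves aggrecan and versican, had 156, 57.6 and 153 counts in Arl13b-null 1 to 3, against 335, 172 and 189 in wild-type 1 to 3. Its groups did not overlap over 6 libraries, but among the 4 similar ones the difference was −0.16 ± 0.091 (SE; limma adjusted p = 0.484).

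The 3 Adamts genes above 0 in the 4 similar libraries were Adamts15, Adamts8 and Adamts4, none past the threshold. Adamts15, another versican-cleaving protease, had 684, 214 and 627 counts in Arl13b-null 1 to 3, against 637, 581 and 475 in wild-type 1 to 3. Arl13b-null 2 was the lowest library, so the difference was 0.29 ± 0.11 in the 4 similar libraries (SE; limma adjusted p = 0.323) but −0.26 ± 0.44 over all 6 (limma adjusted p = 0.990). In the 4 similar libraries Adamts8 differed by 0.09 ± 0.16 and Adamts4 by 0.06 ± 0.10, and the groups of both overlapped. Adamts1 and Adamts3 were among the genes below 0. Adamts1, an inhibitor of vessel growth and versican-cleaving protease, had 372, 189.8 and 407 counts in Arl13b-null 1 to 3, against 489, 484 and 394 in wild-type 1 to 3, and its groups overlapped. Adamts3, which removes the propeptide of procollagen and also cuts reelin, had 373, 1498 and 385 counts in Arl13b-null 1 to 3, against 1335, 394 and 441 in wild-type 1 to 3. The high libraries were Arl13b-null 2 and wild-type 1, and the difference among the others was −0.12 ± 0.084 (SE; limma adjusted p = 0.579).

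**Figure D2:**
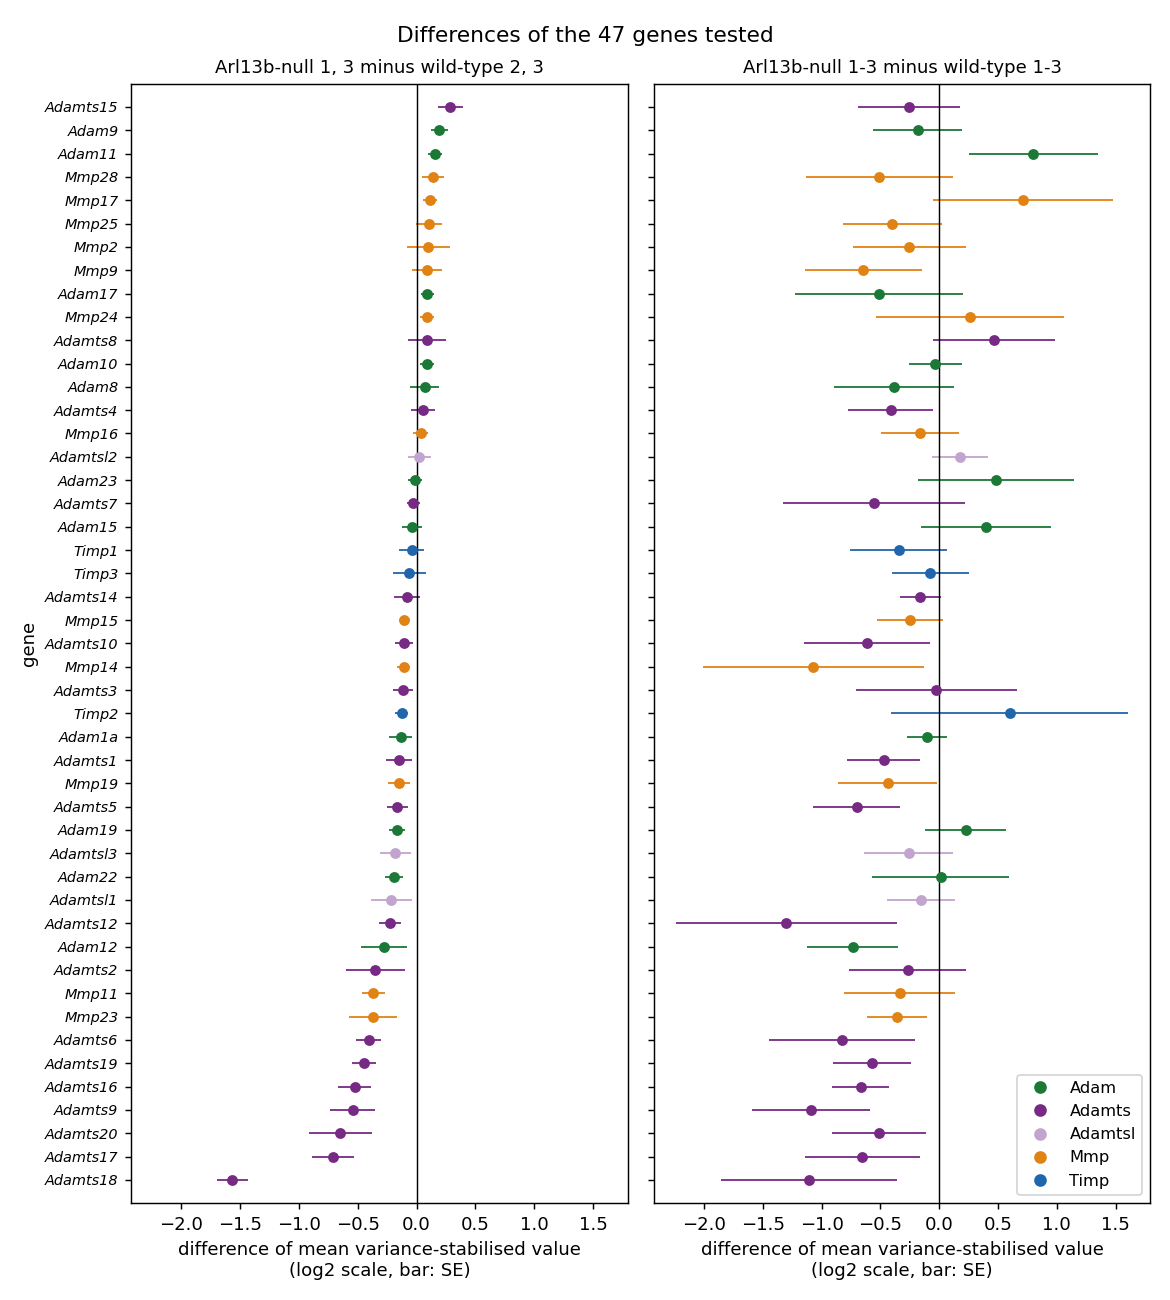
Difference of the mean variance-stabilised value, Arl13b-null minus wild-type (log2 scale, bars: SE from limma), of the 47 genes tested, over the 4 similar libraries (left) and over all 6 (right), coloured by family and ordered by the left panel. Adamts18 is lowest on the left at −1.57, and the bars on the right are wider for all 47 genes.

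The ADAMTS-like proteins showed no difference beyond the spread of the libraries. Adamtsl1 had 201, 311 and 188 counts in Arl13b-null 1 to 3, against 321, 292 and 189 in wild-type 1 to 3. Adamtsl2, a fibrillin-binding protein, had 165, 275 and 188 counts in Arl13b-null 1 to 3, against 181, 169 and 176 in wild-type 1 to 3. Adamtsl3 was the lowest of the 47 genes per length and had 10.2, 36.6 and 5.56 counts in Arl13b-null 1 to 3, against 64.4, 15.2 and 10.3 in wild-type 1 to 3. The limma adjusted p in the 4 similar libraries was between 0.583 and 0.934 for these 3.

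Among the membrane sheddases, Adam10 and Adam17 were nearly level between the groups of the 4 similar libraries. Adam10, the main enzyme that cuts ligand-bound Notch, had 5656, 3914 and 6225 counts in Arl13b-null 1 to 3, against 4733, 5468 and 5699 in wild-type 1 to 3. The difference was 0.087 ± 0.062 (SE; limma adjusted p = 0.578). Adam17, which releases TNF and ligands of the EGF receptor, had 1582, 245 and 1621 counts in Arl13b-null 1 to 3, against 954, 1456 and 1542 in wild-type 1 to 3. Its low libraries were Arl13b-null 2 and wild-type 1, and among the other 4 the difference was 0.092 ± 0.056 (limma adjusted p = 0.518), and over 6 libraries −0.51 ± 0.71. Adam9, a widely expressed sheddase, had 1499, 634 and 1673 counts in Arl13b-null 1 to 3, against 1275, 1341 and 1411 in wild-type 1 to 3 (difference in the 4 similar libraries 0.19 ± 0.071; limma adjusted p = 0.316; over 6 libraries −0.18 ± 0.38). Adam12, expressed in mesenchyme, had 124, 109.9 and 187 counts in Arl13b-null 1 to 3, against 477, 236 and 163 in wild-type 1 to 3, with overlapping groups. Adam8, known from leukocytes, had 88.2, 1.31 and 65.3 counts in Arl13b-null 1 to 3, against 45.5, 72.7 and 67.7 in wild-type 1 to 3.

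The neuronal ADAMs without protease activity, Adam11, Adam22 and Adam23, bind LGI proteins at synapses and axons, and were highest in Arl13b-null 2. Adam11 had 800.3, 3161 and 819.6 counts in Arl13b-null 1 to 3, against 689, 727 and 714 in wild-type 1 to 3. It was the gene of the 47 whose 3 Arl13b-null libraries all lay above the 3 wild-type ones, by 0.15 ± 0.061 in the 4 similar libraries (SE; limma adjusted p = 0.342) and by 0.80 ± 0.55 in all 6 (limma adjusted p = 0.990). Adam22 had 1086, 3620.4 and 1055 counts in Arl13b-null 1 to 3, against 2685, 1153 and 1319 in wild-type 1 to 3. Adam23 had 789, 3925 and 814 counts in Arl13b-null 1 to 3, against 1373, 791 and 829 in wild-type 1 to 3. Among the 4 similar libraries Adam22 differed by −0.19 ± 0.078 (limma adjusted p = 0.352) and Adam23 by −0.013 ± 0.063 (limma adjusted p = 0.947). Over 6 libraries Adam22 differed by 0.01 ± 0.58 and Adam23 by 0.48 ± 0.66.

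Of the 12 Mmp genes tested none passed, where 0.253% of all genes did in the 4 similar libraries. In these 4 libraries 7 lay above and 5 below 0 (41.7% below, against 41.2% of all genes). Their groups did not overlap for 9 (75%, against 47.5% of all genes), of which 5 were higher and 4 lower. Over all 6 libraries 10 of the 12 were below 0 (83.3%, against 49.8% of all genes), with a median of −0.35. Arl13b-null 2 was at least 1 below the mean of the 4 in Mmp2, Mmp11, Mmp14, Mmp19, Mmp25 and Mmp28, and at least 1 above it in Mmp17 and Mmp24. Mmp11, a secreted MMP activated inside the cell by furin-like enzymes, had 695, 309 and 721 counts in Arl13b-null 1 to 3, against 385, 1027 and 849.9 in wild-type 1 to 3. Arl13b-null 1 and 3 lay below wild-type 2 and 3, by −0.37 ± 0.098 (SE; limma adjusted p = 0.204), but above wild-type 1, and over 6 libraries the difference was −0.34 ± 0.47. Mmp14, the membrane MMP that activates Mmp2, had 4199, 368 and 4305 counts in Arl13b-null 1 to 3, against 3385, 4777 and 4425 in wild-type 1 to 3. Its 6-library difference of −1.07 ± 0.94 (SE; limma adjusted p = 0.990) turned to 0.034 without Arl13b-null 2, and among the 4 similar libraries it was −0.11 ± 0.055 (limma adjusted p = 0.435). Mmp15, a second membrane MMP, had 3191, 1867 and 3354 counts in Arl13b-null 1 to 3, against 2731, 3567 and 3469 in wild-type 1 to 3.

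The gelatinases Mmp2 and Mmp9, which degrade basement membrane collagen, did not separate the groups. Mmp2 had 989, 354 and 1215 counts in Arl13b-null 1 to 3, against 749.9, 1228 and 843 in wild-type 1 to 3. Mmp9 had 129, 60.3 and 148 counts in Arl13b-null 1 to 3, against 455, 144 and 110.2 in wild-type 1 to 3, with wild-type 1 standing out. Mmp23 had 14.4, 7.64 and 24.1 counts in Arl13b-null 1 to 3, against 17.5, 52.5 and 23.4 in wild-type 1 to 3, and its groups overlapped. Mmp24, a membrane MMP of the nervous system, had 1643, 8308 and 1735 counts in Arl13b-null 1 to 3, against 5387, 1614 and 1554 in wild-type 1 to 3. Both libraries that stand apart were high, and among the other 4 the difference was 0.089 ± 0.056 (SE; limma adjusted p = 0.534).

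The TIMP inhibitors were close to level among the 4 similar libraries. Timp2, which blocks most MMPs and also helps Mmp14 activate Mmp2, had 2502, 26244 and 2405 counts in Arl13b-null 1 to 3, against 6269.5, 2743 and 2633 in wild-type 1 to 3. Arl13b-null 2 was 10.2 times the mean of the 4 similar libraries, while among those 4 the difference was −0.13 ± 0.051 (SE; limma adjusted p = 0.347), and over 6 libraries 0.60 ± 1.0. Timp3, a matrix-bound inhibitor that also blocks Adam17 and several ADAMTS enzymes, had 907, 1673 and 1188 counts in Arl13b-null 1 to 3, against 1804, 1181 and 998 in wild-type 1 to 3. Timp1 had 45.8, 1.29 and 48.0 counts in Arl13b-null 1 to 3, against 27.0, 53.3 and 46.0 in wild-type 1 to 3. Timp4 had too few counts to be tested, with 3.62, 14.5 and 3.06 in Arl13b-null 1 to 3 against 109, 4.61 and 3.13 in wild-type 1 to 3, and stood out in wild-type 1 alone.

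Per length, the membrane enzymes and Timp2 were the most abundant of these transcripts in the 4 similar libraries. Normalized counts per kb of merged exons (GENCODE M21, which had all 84 symbols) averaged 1254 for Adam10, 1058 for Mmp14, 693 for Timp2, 661 for Mmp15 and 380.1 for Mmp24. The leading Adamts gene was Adamts7, a protease of cartilage and vessel matrix, at 295, followed by Adamts10 at 137. Adamts18 was 35th of the 47 at 25.3, and Adamts16 was 46th at 4.82. In Arl13b-null 2 Timp2 led at 7076 per kb and Mmp24 had 1929, while Mmp14 had 88.0.

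**Figure D3:**
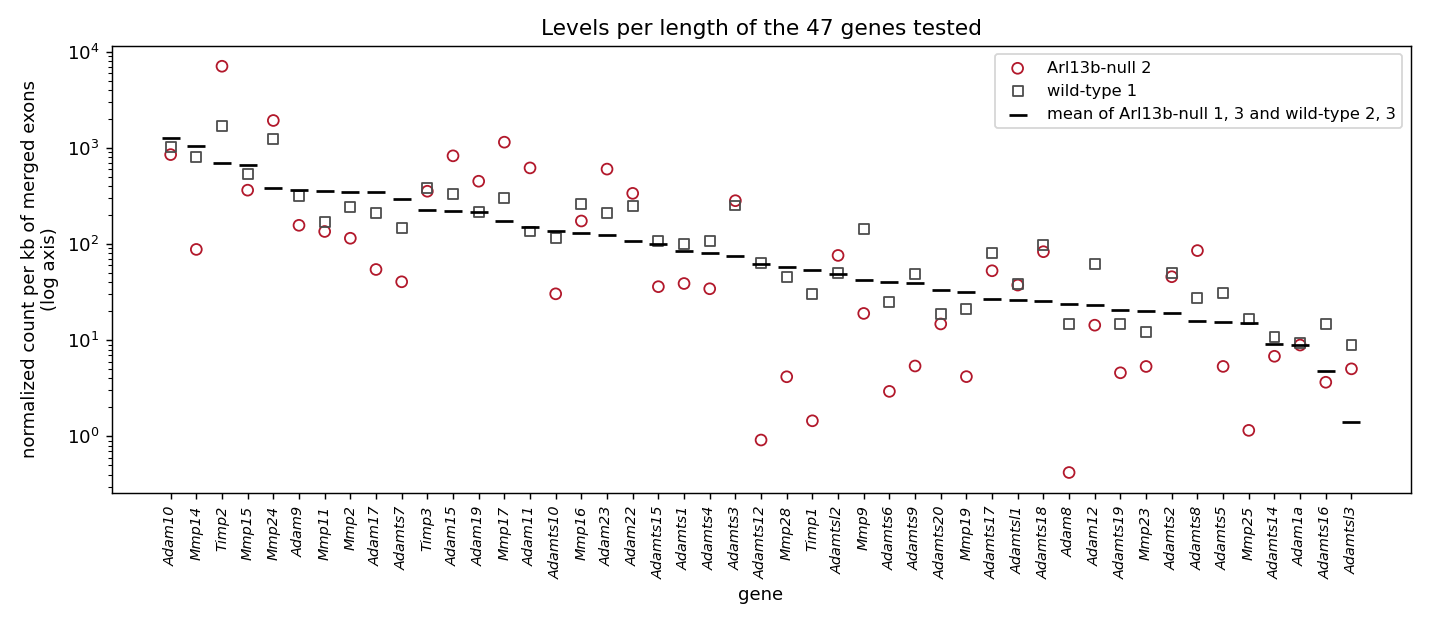
Normalized count per kb of merged exons (log axis) of the 47 genes tested, ordered by the mean of Arl13b-null 1 and 3 and wild-type 2 and 3 (black dashes), with Arl13b-null 2 (red circles) and wild-type 1 (grey squares). Adam10 leads the dashes at 1254 per kb, and Timp2 in Arl13b-null 2 is the highest point at 7076.

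Arl13b-null 2 and wild-type 1 departed from the other libraries in many of these genes. Against the mean of the 4 similar libraries, 12 of the 47 genes were at least 1 higher on the log2 scale in Arl13b-null 2, where 20.9% of all genes were, and 17 were at least 1 lower, where 25.7% of all genes were. The 12 included Timp2, Adam11, Adam22, Adam23, Mmp24, Adamts3, Adamts18 and Mmp17, a membrane-anchored MMP that had 7371 counts in Arl13b-null 2 and between 1046 and 1921 elsewhere. The 17 included Mmp14, Adam17, Timp1, Adamts7 and Adamts12, a matrix protease with 7.85 counts in Arl13b-null 2 and between 461 and 616 elsewhere. In wild-type 1, 10 genes were at least 1 higher, where 12.4% of all genes were, and 0 were at least 1 lower, where 6.78% were. Adam22, Adamts2, Adamts3, Adamts18, Mmp24 and Timp2 were at least 1 higher in both libraries. Neuronal markers summed to 549247 counts in Arl13b-null 2 and 239844 in wild-type 1, against 135224 to 143402 in the 4 similar libraries, and progenitor markers to 3480.1 and 48953, against 130855 to 165043. Mesenchymal markers summed to 618 in Arl13b-null 2 and 27661 in wild-type 1, against 28332 to 74034. The part of these cell types in the values was not tested.

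**Figure D4:**
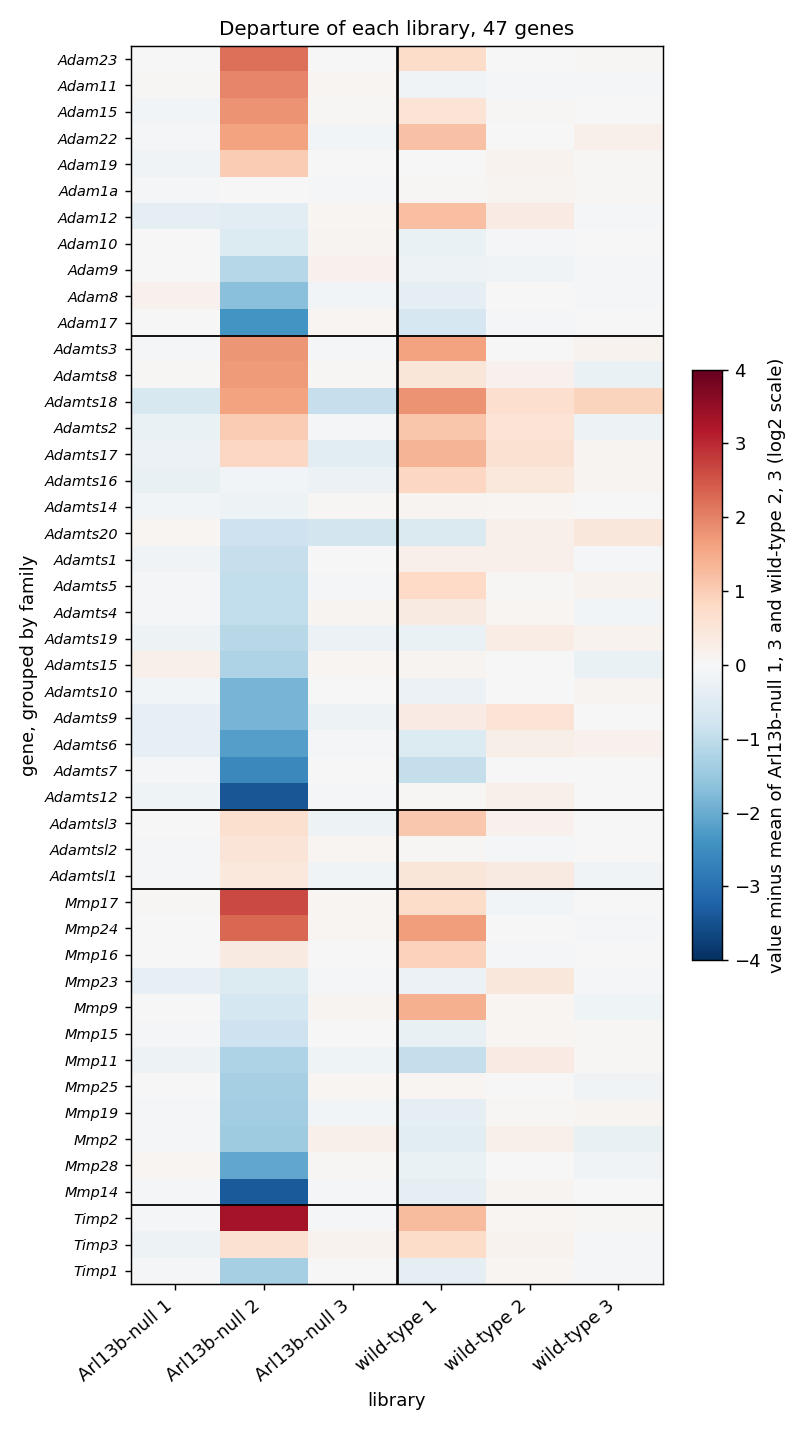
Variance-stabilised value of each library minus the mean of Arl13b-null 1 and 3 and wild-type 2 and 3 (colour, log2 scale) for the 47 genes tested, in rows by family, with the Arl13b-null libraries left of the line and wild-type right. Arl13b-null 2 and wild-type 1 hold most of the colour, and Adamts18 is among the rows where Arl13b-null 1 and 3 are visibly below wild-type 2 and 3.

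The remaining 37 genes were not tested because of low values, and 15 of them were at the lowest value of the table in all 6 libraries. They include 22 of the 33 Adam genes, many of them known from sperm and testis, and 11 of the 23 Mmp genes, such as Mmp3, Mmp10 and Mmp20. Several of these low genes had counts chiefly in a library that stands apart. Adamts13, the protease that trims von Willebrand factor, had 17.0 counts in Arl13b-null 2 and was listed at 0 in the other 5 libraries. Adamtsl4 had 63.2 counts and Adamtsl5 44.8 in wild-type 1, against at most 13.9 and 12.9 elsewhere. Adam33, an ADAM of mesenchyme and smooth muscle, had 0.734, 0 and 5.53 counts in Arl13b-null 1 to 3 and 22.9, 7.92 and 7.86 in wild-type 1 to 3.

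Genes that work with these proteases were taken from 5 lists. Of 17 tested matrix substrates, 13 lay below 0 in the 4 similar libraries, where 41.2% of all genes did. The median difference was −0.24, against 0.02 for all genes. Against 0.182% of all genes, 1 substrate passed, lower. This was Tnc, the matrix glycoprotein tenascin-C, with 248, 902 and 223 counts in Arl13b-null 1 to 3, against 6639, 837 and 625 in wild-type 1 to 3 (difference in the 4 similar libraries −1.40 ± 0.14, SE; limma adjusted p = 0.0450; over 6 libraries −1.86 ± 1.0, limma adjusted p = 0.990). Arl13b-null 2 lay above wild-type 2 and 3 here too, as for Adamts18. Versican, Vcan, the shared substrate of several ADAMTS enzymes, had 5259, 1494 and 4526 counts in Arl13b-null 1 to 3, against 5956, 6882 and 7394 in wild-type 1 to 3. All 3 Arl13b-null libraries were below all 3 wild-type ones, and the difference in the 4 similar libraries was −0.54 ± 0.083 (SE; limma adjusted p = 0.0887), and over 6 libraries −1.01 ± 0.49 (limma adjusted p = 0.990).

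In the other 4 lists no gene passed in either comparison. The medians in the 4 similar libraries were 0.06 over 22 inhibitors and regulators, 0.09 over 13 other extracellular proteases, 0.05 over 23 membrane substrates of Adam10 and Adam17, and 0.06 over 9 binding partners of the neuronal ADAMs, near the 0.02 of all genes. Htra1, a secreted serine protease, had 45.8, 76.1 and 43.0 counts in Arl13b-null 1 to 3, against 599, 297 and 149 in wild-type 1 to 3, with no overlap in all 6 libraries. It differed by −1.44 ± 0.25 in the 4 similar libraries (SE, limma adjusted p = 0.109) and by −1.72 ± 0.45 over 6 libraries (limma adjusted p = 0.990). Pcsk6, a proprotein convertase of the furin family, which activates such proteases, had 267, 414 and 264 counts in Arl13b-null 1 to 3, against 614, 389 and 433 in wild-type 1 to 3. Its difference was −0.53 ± 0.085 in the 4 similar libraries (SE, limma adjusted p = 0.0976) and −0.52 ± 0.28 over 6 libraries (limma adjusted p = 0.990). Chl1, an adhesion molecule shed at the surface of neurons, had 3769, 13709.5 and 4118 counts in Arl13b-null 1 to 3, against 17617, 2658 and 2466 in wild-type 1 to 3 (difference in the 4 similar libraries 0.61 ± 0.066, SE; limma adjusted p = 0.0526; over 6 libraries 0.29 ± 0.92). The LGI binding partner list summed to 53944 counts in Arl13b-null 2 and 15337 in wild-type 1, against 6049 to 6434 in the 4 similar libraries, high in the same 2 libraries as Adam22 and Adam23.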

How the data were processed

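Poly(A) RNA of 6 telencephalon libraries was sequenced; genotype labels define the 2 groups. What the authors deposited is a single matrix of normalized counts after variance stabilisation, on a log2 scale, between 5.13 and 18.39. The build mm9 and the tools DESeq 1.16.1, DESeq2, Salmon 0.9.1, STAR 2.6.0 and CASAVA are named, without their roles, per the submitters' processing notes. The lowest value, shared by all libraries, is the transformed count of 0; it fixes the parametric transformation, which was inverted to give the normalized counts printed here. The lowest inverted step, between 0.536 and 1.31, was taken as 1 read, which puts the depth between 27574800 and 51711800 reads; counts near 1 read are uncertain.

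Genes with a mean at least 1 above the lowest value were kept (14249). Two-sided tests came from limma 3.58.1 (R 4.3.3) with a trend of variance on mean, and p-values were adjusted by Benjamini-Hochberg over all genes kept (threshold 0.05). Differences are Arl13b-null minus wild-type on the variance-stabilised scale, which understates changes of low genes. Gene-level counts of close paralogs may be shared. The code was tested on simulated data. Values in every library are given for genes past the threshold, for the 3 genes of each family with the smallest p in either comparison and for 16 genes fixed by name; others are named for values seen. From each list of partner genes up to 3 with the smallest p could be named. Genes, lists, tests and the 4-library comparison were chosen with earlier results of these data known. One marker gene is not reported here and was left out of its list. Exon lengths are from GENCODE M21, and figures were drawn with matplotlib 3.10.9. Alternatives are listed in the closing section.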

Additional observations from a re-analysis of the deposited data

How the results depend on the processing

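Over 6 libraries, 0 of the 47 genes passed in limma under the main setting, the replicate block, other filters, scalings and moderations, and without each library in turn; estimated library weights, whose iteration stopped before convergence, gave 2 (Adamts18 and Adamts20), and the 4 similar libraries gave 1. Over all genes the 6-library count was 0, and 3 without the filter, 214 with library weights and 0 to 4 without each library. In the 4 similar libraries the count of 1 became 0 with no filter or no mean-variance trend, and 0 to 2 without each library; over all genes the 36 calls became 1 with no filter, 56 with quantile normalization, 7 with no mean-variance trend, 98 with robust moderation and 6 to 725 without each library. A fit without 1 of those 4 libraries sets 1 library, assumed to vary like the others, against 2. The cause of these shifts was not tested.

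Of 697 alternative values of single genes over 6 libraries and 509 over 4, 54 and 18 changed sign, all but 3 and 2 of them from values smaller than their SE. The exceptions were Adamts4 (0.064) and Mmp9 (0.067) with library weights, Mmp14, between −1.63 and 0.034 without each of 6 libraries, and Adamts2, between −0.72 and 0.023, and Adamtsl1, between −0.46 and 0.034, without each of 4. Whether the replicate numbers pair the libraries could not be decided. Deviations of same-numbered libraries from their group means correlated at −0.71, −0.71 and 0.62. Differently numbered ones reached 0.71 (Arl13b-null 2 with wild-type 1) and 0.70 (Arl13b-null 1 with wild-type 2). These values follow which libraries stand apart, so they cannot show a pairing or its absence. With the replicate block 0 of the 47 genes and 0 of all genes passed over 6 libraries. No paired analysis was possible for the 4 similar libraries, which share 1 number. Depth limits the genes with low counts, and 37 of the 84 were not tested.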
